A study of Mus musculus with 2 samples.

Results

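The genes of the ephrin, Eph receptor, semaphorin, plexin, neuropilin, Slit and Robo families were followed across the cell states of the growing mouse hair follicle. The families were chosen with earlier results of these data known. Their members were then taken by symbol alone, as every ephrin, Eph, semaphorin, plexin, neuropilin 1 or 2, Slit and Robo gene of the deposited feature table. The choice returned 63 of 31053 features, of which 60 were protein coding and 3 were antisense genes of Plxna4. They comprised 8 ephrins, 14 Eph receptors, 20 semaphorins, 9 plexins, 2 neuropilins, 3 Slits and 4 Robos, besides the 3 antisense genes.

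The data were 2 libraries of single hair follicle stem cells from wild type mice, strain C57BL/6;CD1, on postnatal day 32 in anagen, when hair follicles grow. Cells had been sorted from skin on the surface protein CD34 and on H2BGFP, a fluorescent histone that marks cells in which the K14 (keratin 14) promoter is active. The libraries are replicates 1 and 2 of a single group, with no treatment or second genotype. Nothing in the labels says that they came from separate animals. The p-values measure only how far differences between states varied between these 2 libraries, and that spread may be technical. A steady difference between the libraries is taken out by the fit described below.

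These families are guidance systems: they tell a moving axon, vessel or epithelial cell where not to go, and they set borders between neighbouring cell groups. Ephrins are membrane-bound ligands of the Eph receptor tyrosine kinases, and both partners can signal when cells touch. Semaphorins, secreted or membrane-bound, act through plexins, with neuropilins as co-receptors for most secreted forms, and the secreted Slits act through Robo receptors. In skin the ephrin and Eph genes are best known for positioning and proliferation of epidermal and follicle cells.

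The promoters of 4 genes are shown, as 250 bases before and 50 after the annotated start (RefSeq, GRCm38.p6), because Slit3, Sema3e and Epha1 were all called higher in the Fgf5/Fbln5 and Edn2/Dio3 states described below, in which Efnb2 had its lowest levels. Sema3e was also called higher in the bulge, as Efnb2 was. Capitals mark matches, on either strand, to the GC box and to the core letters bound by AP-1, TEAD and TCF/LEF factors and to the TATA box, whose letters are spelled out after the sequences. The windows are chr11:35121206-35121505 on the plus strand for Slit3, chr5:14025026-14025325 on the plus strand for Sema3e, chr6:42373219-42373518 on the minus strand for Epha1 and chr8:8661193-8661492 on the minus strand for Efnb2.
Slit3: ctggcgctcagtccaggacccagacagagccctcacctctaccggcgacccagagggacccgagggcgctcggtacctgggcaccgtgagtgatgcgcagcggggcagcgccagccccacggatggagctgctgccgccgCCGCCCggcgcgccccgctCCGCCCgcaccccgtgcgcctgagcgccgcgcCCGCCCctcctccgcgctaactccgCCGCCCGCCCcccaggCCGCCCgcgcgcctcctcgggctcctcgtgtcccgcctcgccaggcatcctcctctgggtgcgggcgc
Sema3e: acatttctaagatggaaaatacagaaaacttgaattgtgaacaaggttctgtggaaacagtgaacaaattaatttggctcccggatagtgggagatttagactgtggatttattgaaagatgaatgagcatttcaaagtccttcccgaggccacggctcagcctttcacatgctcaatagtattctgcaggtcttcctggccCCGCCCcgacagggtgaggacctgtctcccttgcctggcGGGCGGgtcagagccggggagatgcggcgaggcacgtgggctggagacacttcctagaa
Epha1: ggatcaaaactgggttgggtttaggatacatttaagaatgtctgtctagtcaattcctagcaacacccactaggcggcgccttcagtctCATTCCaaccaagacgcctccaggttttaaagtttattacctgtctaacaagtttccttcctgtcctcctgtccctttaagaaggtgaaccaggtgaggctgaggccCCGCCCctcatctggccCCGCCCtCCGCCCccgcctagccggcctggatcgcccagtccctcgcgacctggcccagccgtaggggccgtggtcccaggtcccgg
Efnb2: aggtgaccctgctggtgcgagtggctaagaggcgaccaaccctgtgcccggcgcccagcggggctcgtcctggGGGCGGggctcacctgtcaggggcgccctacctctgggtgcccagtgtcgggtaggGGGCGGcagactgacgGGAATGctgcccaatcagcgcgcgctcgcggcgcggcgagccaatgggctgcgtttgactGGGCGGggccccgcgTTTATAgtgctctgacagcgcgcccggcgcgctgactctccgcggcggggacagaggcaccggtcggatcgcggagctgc
The GC box, searched as GGGCGG, had 6 matches in the Slit3 window, 2 in Sema3e, 3 in Epha1 and 3 in Efnb2, and 35.7% of all 32851 promoter windows of this length held at least 1. Of the 6 in Slit3, 2 overlapped each other. Epha1 and Efnb2 each held 1 match to the TEAD letters, GGAATG, which 14.7% of all windows held, and Efnb2 alone of the 4 held the TATA box, searched as TATAAA and found in 13.6% of windows. No window of the 4 held the AP-1 letters TGANTCA, found in 7.81% of all windows. None held the TCF/LEF letters either, searched as ATCAAAG and found in 3.73% of all windows. A match is a description of the sequence, and these matches were not tested for a role.

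Replicate 1 held 6592 barcodes and 52344178 UMIs (unique molecular identifiers, each standing for 1 captured mRNA molecule), and replicate 2 held 5080 and 38678103. Barcodes needed 1000 or more detected genes and no more than 10% mitochondrial UMIs, which left 3918 and 3041 cells with medians of 9955 and 9797 UMIs. The 63 genes together took 58898 and 39639 of those UMIs. Cells were assigned to 10 keratinocyte states by marker genes that are not members of the families, and the states are called by their markers. They held, in replicates 1 and 2, 35 and 246 Krt24/Grem1 bulge cells, 226 and 149 Gdf10/Scrg1 cells, 670 and 221 Wfdc18/Pthlh cells, 356 and 343 Fgf5/Fbln5 cells, 319 and 220 Edn2/Dio3 cells and 79 and 240 Krtdap/Sostdc1 cells. The other four states were the upper follicle (31 and 32 cells), the inner root sheath (56 and 37), S phase (229 and 240) and G2/M (372 and 269). Among these states the sort gene Cd34 was highest in the bulge, at 303 and 387 CPM (UMIs of the gene per 1000000 UMIs of the state in that library). It was 16.9 and 16.1 in Wfdc18/Pthlh cells and 7.52 and 2.59 in the inner root sheath. Fibroblast cells present in the sort held more Cd34, at 636 and 616. The basal keratin Krt5 was lowest in the inner root sheath, at 720 and 1114, and higher in the other 9 states. Each keratinocyte marker list was highest in its own state, but some were shared. Wfdc18/Pthlh markers summed to 2035 and 1160 CPM in bulge cells, against 3751 and 3591 in their own state. Krtdap/Sostdc1 markers summed to 646 and 1599 in bulge cells, against 1610 and 1861. Fgf5/Fbln5 markers summed to 1269 and 1056 in Edn2/Dio3 cells, against 3060 and 2679. The libraries stood apart in their makeup: bulge cells were 0.893% of kept cells in replicate 1 and 8.09% in replicate 2, so each value below is given for both libraries.

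All levels are CPM of this kind. The 3′ kit counts 1 end of each molecule, so no correction for transcript length was made, and comparisons below are of 1 gene between states. In their highest state 10 members reached at least 100 CPM and 29 reached at least 20, while 29 stayed under 5. Of the 25 members with the highest peak levels, 11 peaked in the same state in both libraries. After every cell was thinned to 5000 UMIs, which left out 5.55% of kept cells, the median cell of a keratinocyte state held UMIs of 4 to 6 of the 63 genes in replicate 1 and of 3 to 6 in replicate 2.

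**Figure D1:**
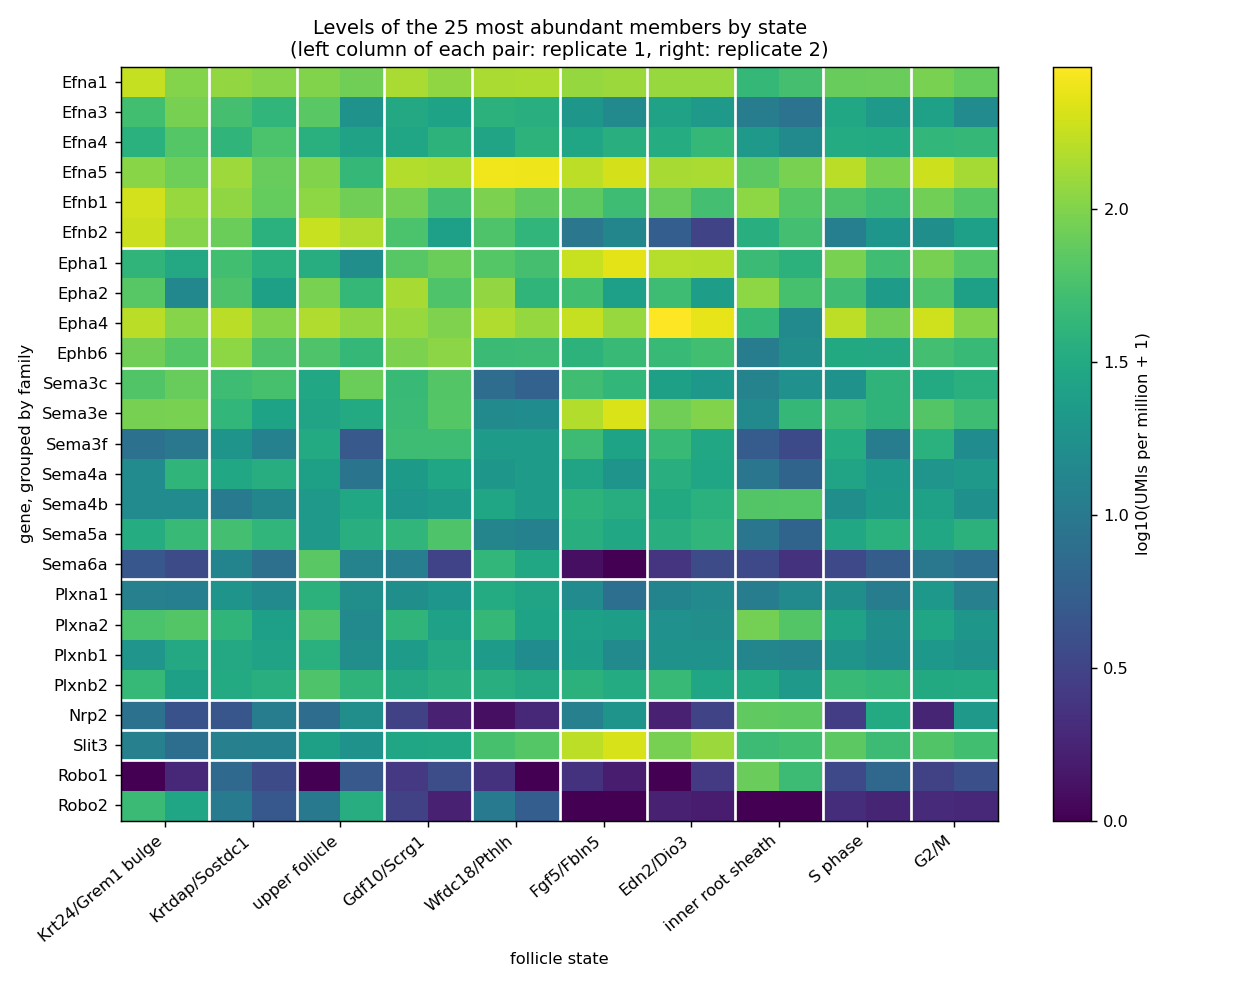
Colour gives log10(CPM + 1) of the 25 members with the highest peak levels (rows, grouped by family) in the 10 states (columns in pairs, replicate 1 on the left and replicate 2 on the right). Slit3, Sema3e and Epha1 are brightest in Fgf5/Fbln5 cells, Epha4 in Edn2/Dio3 cells, Efna5 in Wfdc18/Pthlh cells, Efnb2 in the bulge and upper follicle, and Robo1 and Nrp2 in the inner root sheath.

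For the tests, UMIs were summed over the cells of each state in each library, and the 20 sums were fitted together with a library term by edgeR's quasi-likelihood method over 11188 genes. All p-values are two-sided and Benjamini-Hochberg adjusted over those genes, with a threshold of 0.05. Of the 63 members, 36 passed the filter on low counts, and 32 of these 36 (88.9%) differed between states, against 60.8% of all genes tested. The members called were all 7 tested Eph receptors, all 7 tested ephrins, both neuropilins, the tested Slit, both tested Robos, 10 of 12 tested semaphorins and 3 of 5 tested plexins. Sema3b, Sema4c, Plxna3 and Plxnb2 were tested and not called. The other 27 members did not pass the filter, and passing it depends on the level in at least 1 state, so the 36 do not stand for all members. Each state was then set against the mean of the log levels of the other 9 states, and the log2 fold changes below are from these contrasts unless another is named.

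Among the ephrins, the ligands, Efnb2 (chr8:8617434-8661242), a transmembrane ligand best known as an arterial marker, varied most. Its level was 186 and 103 CPM in bulge cells of replicates 1 and 2, and 183 and 149 in the upper follicle. In Edn2/Dio3 cells it was 4.45 and 2.20, from 13 and 4 UMIs, and in Fgf5/Fbln5 cells 8.49 and 12.7. The bulge and upper follicle lay above the other 8 states in both libraries, and Edn2/Dio3 lay below all of them. Its log2 fold change was 2.30 ± 0.30 (SE) in the bulge (edgeR adjusted p = 1.8e-05), 2.72 ± 0.32 in the upper follicle (adjusted p = 8.7e-06) and -3.60 ± 0.50 in Edn2/Dio3 cells (adjusted p = 4.57e-05). After thinning, 45.5% (95% exact Clopper-Pearson interval 28.1 to 63.6) and 32.6% (26.5 to 39.1) of bulge cells held an Efnb2 UMI, against 1.72% (0.56 to 3.96) and 1.02% (0.123 to 3.62) of Edn2/Dio3 cells. Intervals cover counting error only. Before thinning the shares were 51.4% and 47.6% of bulge cells (medians of 7404 and 8622 UMIs a cell) and 3.76% and 1.82% of Edn2/Dio3 cells (8528 and 7576), while the fibroblast cells present in the sort gave 13.0% and 5.56% (12722 and 16493). The Edn2/Dio3 share lay below that of fibroblasts. Fibroblasts were deeper and held the 3 transmembrane ephrins at 76.6 and 45.0 CPM in sum, so they set no floor for Efnb2. With 13 and 4 UMIs, the Edn2/Dio3 share is not read as expression.

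Efnb1 (chrX:99136130-99148991), the other abundant transmembrane ephrin, was highest in bulge cells in both libraries, at 197 and 121 CPM, against 58.7 to 112 and 47.7 to 84.2 in the other states. The difference passed the test, with a log2 fold change of 1.09 ± 0.13 (edgeR adjusted p = 6.22e-06). Efnb1 was lower in S phase (58.7 and 47.7), Fgf5/Fbln5 (70.2 and 49.5) and Edn2/Dio3 cells (78.1 and 52.2), with log2 fold changes of -0.68, -0.56 and -0.40. It was thus the broad member of the pair and Efnb2 the restricted one: the third transmembrane ephrin, Efnb3, did not pass the filter and stayed at or below 5.01 CPM in every state of both libraries.

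The ephrins that are tethered to the membrane by a lipid anchor had other peaks. Efna5 (chr17:62604184-62881317) was highest in Wfdc18/Pthlh cells, at 257 and 254 CPM, and lowest in the inner root sheath of replicate 1 (69.4) and the upper follicle of replicate 2 (43.1). Its log2 fold change in Wfdc18/Pthlh cells was 1.18 ± 0.16 (edgeR adjusted p = 2.93e-05), and it was also higher in Fgf5/Fbln5 cells (0.55) and lower in the inner root sheath (-0.66) and upper follicle (-0.87). Efna1 (chr3:89271733-89281142), Efna3 (chr3:89313899-89322965) and Efna4 (chr3:89333390-89338028) lie next to each other on the minus strand of 1 chromosome. Efna3 was higher in the bulge, at 51.1 and 90.0 CPM and a log2 fold change of 1.86 ± 0.21 (adjusted p = 3.17e-06), and in Krtdap/Sostdc1 cells, at 54.3 and 41.1 (0.82 ± 0.21, adjusted p = 0.0228). In replicate 1 the upper follicle, at 66.9, exceeded the bulge, whereas in replicate 2 it was 17.6. Efna4 was also higher in the bulge (36.5 and 64.9, log2 fold change 0.79). Efna1 was higher in Wfdc18/Pthlh cells (141 and 144, 0.59) and Gdf10/Scrg1 cells (142 and 112, 0.50). In replicate 1, however, Efna1 was highest in the bulge, at 179 CPM, against 102 in replicate 2. It was not called in the bulge (edgeR adjusted p = 0.0882). Efna1, Efna3 and Efna4 were all lower in the inner root sheath, with log2 fold changes of -1.15, -1.77 and -0.998. Efna2, at 26.6 and 14.3 CPM in Krtdap/Sostdc1 cells, was called in that state alone (1.03 ± 0.27, adjusted p = 0.0283).

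Summed over their genes, the B-class ephrins stood at 383 and 224 CPM in the bulge and 83.9 and 54.4 in Edn2/Dio3 cells. The EphA receptors had the reverse order, at 266 and 147 in the bulge and 498 and 413 in Edn2/Dio3 cells. The EphB receptors stood at 117 and 102 in the bulge and 107 and 110 in Edn2/Dio3 cells, with no common direction. The A-class ephrins differed less between these states, with 387 and 349 against 327 and 334. These sums are descriptions and were not tested.

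Epha4 (chr1:77367185-77515088), an Eph receptor that binds ephrins of both classes, stood at 293 and 237 CPM in Edn2/Dio3 cells, above every other state in both libraries (43.5 to 194 and 14.2 to 122), and its lowest values were those of the inner root sheath. The log2 fold change was 1.22 ± 0.13 in Edn2/Dio3 cells (edgeR adjusted p = 3.62e-06) and -2.23 ± 0.22 in the inner root sheath (adjusted p = 8.51e-07). Epha1 (chr6:42358487-42373268), a receptor first known from epithelial tissues, was 182 and 232 in Fgf5/Fbln5 cells and 156 and 152 in Edn2/Dio3 cells. The other 8 states lay below both, at 33.4 to 93.1 and 15.7 to 81.4. Its log2 fold changes were 1.83 ± 0.15 (adjusted p = 2.28e-08) and 1.36 ± 0.16 (adjusted p = 7.42e-06), and it was lower in the bulge (-0.996) and upper follicle (-1.46). After thinning, an Epha1 UMI was found in 51.5% and 61.3% of Fgf5/Fbln5 cells and in 12.1% and 15.4% of bulge cells. Fibroblasts gave 6.25% and 2.86%.

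Epha2, another epithelial Eph receptor, was highest in Gdf10/Scrg1 cells of both libraries, at 140 and 60.4 CPM (log2 fold change 1.21 ± 0.14, edgeR adjusted p = 8.88e-06). It was also higher in the inner root sheath (112 and 55.6, 0.86) and Wfdc18/Pthlh cells (116 and 39.8, 0.69). It was lower in 4 states: the bulge (65.6 and 13.3, -0.83), Edn2/Dio3 cells (49.7 and 23.1, -0.58), S phase (50.4 and 22.3, -0.56) and Fgf5/Fbln5 cells (51.4 and 23.8, -0.54). In each of the 10 states the level of replicate 1 was above that of replicate 2, so Epha2 is compared within libraries here. Ephb6, an Eph receptor without kinase activity, was higher in Gdf10/Scrg1 cells (94.3 and 108, log2 fold change 1.36 ± 0.16, adjusted p = 1.15e-05), in Krtdap/Sostdc1 cells (110 and 59.2, 0.81) and in the bulge (83.9 and 64.0, 0.69). It was lower in the inner root sheath, at 10.0 and 15.5 (-2.09 ± 0.30, adjusted p = 4.13e-05), and in S phase (-0.72).

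The kinase-active B-class receptors were less abundant. Ephb1 was higher in Fgf5/Fbln5 cells (23.4 and 27.6 CPM, log2 fold change 1.48 ± 0.30, edgeR adjusted p = 0.00106) and in Edn2/Dio3 cells (25.01 and 28.6, 1.55 ± 0.33, adjusted p = 0.00259). Ephb3 was higher in Wfdc18/Pthlh cells (26.1 and 18.8, 1.17) and Edn2/Dio3 cells (25.01 and 18.7, 1.06). In S phase Ephb1 stood at 31.9 in replicate 1 and 7.63 in replicate 2 and was not called. Ephb4 was called in 1 state, the inner root sheath, where it was lower (8.36 and 5.17, -1.07). Ephb2, Epha3, Epha5, Epha6, Epha7, Epha8 and Epha10 did not pass the filter, and none of them exceeded 3.92 CPM in a keratinocyte state of either library.

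Slit3 (chr11:35121224-35708507), a secreted ligand of Robo receptors, had the most significant difference between states of all members in the joint test (edgeR adjusted p = 1.45e-09). Its level was 166 and 209 CPM in Fgf5/Fbln5 cells and 90.4 and 124 in Edn2/Dio3 cells. It was 10.9 and 6.85 in the bulge, from 3 and 15 UMIs, and 10.9 and 11.2 in Krtdap/Sostdc1 cells. Both high states lay above all others in both libraries, and both low states below all others. The log2 fold changes were 2.41 ± 0.13 in Fgf5/Fbln5 cells (adjusted p = 6.96e-11), 1.53 ± 0.14 in Edn2/Dio3 cells (5.89e-07), -2.67 ± 0.31 in the bulge (4.21e-06) and -2.10 ± 0.24 in Krtdap/Sostdc1 cells (3.69e-05). After thinning, 53.3% (47.8 to 58.7) and 59.8% (54.2 to 65.1) of Fgf5/Fbln5 cells held a Slit3 UMI, against 6.06% (0.743 to 20.2) and 2.20% (0.719 to 5.07) of bulge cells. Fibroblasts expressed Slit3 too, at 183 and 113 CPM. The 5 fibroblast markers (Col1a1, Col1a2, Col3a1, Dcn and Lum) summed to 13.6 and 16.0 in Fgf5/Fbln5 cells and to 52021 and 39736 in fibroblasts. The part of fibroblast RNA in the Slit3 values was not tested. Slit2 was detected mainly in fibroblasts (105 and 77.2) and stayed at or below 1.54 in every keratinocyte state, and Slit1 had no UMI in the kept cells.

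**Figure D2:**
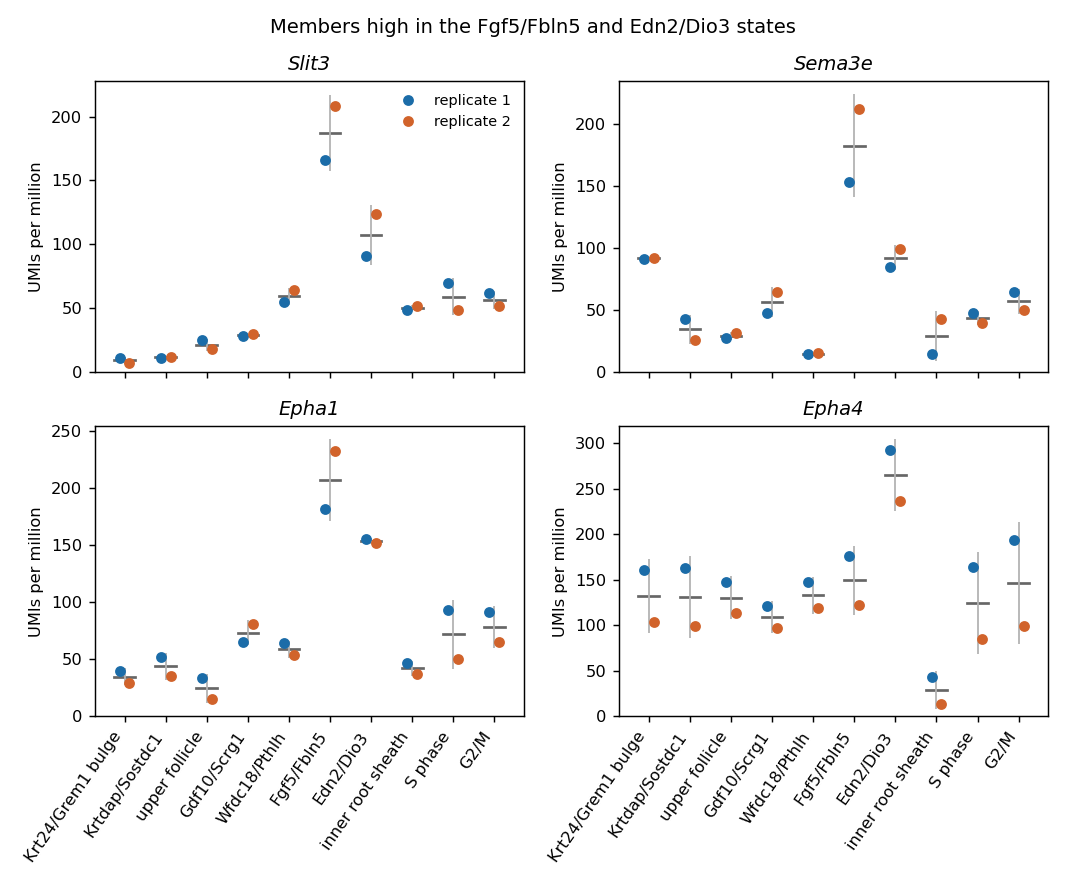
Points are CPM of Slit3, Sema3e, Epha1 and Epha4 in each of the 10 states (blue, replicate 1; orange, replicate 2), with the mean of both libraries as a grey dash and ± SD as a grey line. Slit3 reaches 166 and 209 in Fgf5/Fbln5 cells and 10.9 and 6.85 in the bulge; Epha4 peaks in Edn2/Dio3 cells at 293 and 237.

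Robo1 and Robo2 peaked in states other than the 2 with the most Slit3, but not only where Slit3 was low. The 3 Slits summed to 49.3 and 53.0 CPM in the inner root sheath, where Robo1 peaked. Robo2 (chr16:73891839-74411825) was 47.4 and 27.4 CPM in bulge cells, from 13 and 60 UMIs, and 8.92 and 33.3 in the upper follicle. Fgf5/Fbln5 cells held no Robo2 UMI in either library, which allows at most 0.771 and 0.829 CPM, and the inner root sheath held none either. Its log2 fold change was 5.06 ± 0.47 in the bulge (edgeR adjusted p = 7.71e-07) and 4.42 ± 0.64 in the upper follicle (adjusted p = 0.000167), both of which depend on the small count added by the fit where other states are at 0. Bulge cells with a Robo2 UMI were few, 17.1% and 16.7% before thinning. Fibroblasts gave 24.1% and 30.6% at medians of 12722 and 16493 UMIs, and the fibroblast markers summed to 10.9 and 11.0 CPM in the bulge. The part of fibroblast RNA in the Robo2 values was not tested.

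Robo1 (chr16:72308306-73046095) marked the inner root sheath, at 78.6 and 47.9 CPM, against 0 to 6.04 and 0 to 5.72 in the other states. Its log2 fold change there was 5.31 ± 0.37 (edgeR adjusted p = 1.34e-08), and 69.6% and 56.8% of these cells held a UMI before thinning. The inner root sheath cells were deeper than other states, with medians of 21155 and 18988 UMIs, and after thinning the shares were 24.5% (13.8 to 38.3) and 27.8% (14.2 to 45.2). The state was unlike between the libraries: its 4 keratin markers summed to 5892 and 1233 CPM. With doublets removed it held 53 and 22 cells. Of the fibroblast markers, Dcn stood at 540 and 651 CPM in this state, while Col1a1, Col1a2, Col3a1 and Lum lay between 0 and 5.17. Robo1 in fibroblasts was 26.5 and 25.7, below the inner root sheath level, and the part of fibroblast RNA in the latter was not tested. Robo3 and Robo4, the latter an endothelial receptor, did not pass the filter.

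**Figure D3:**
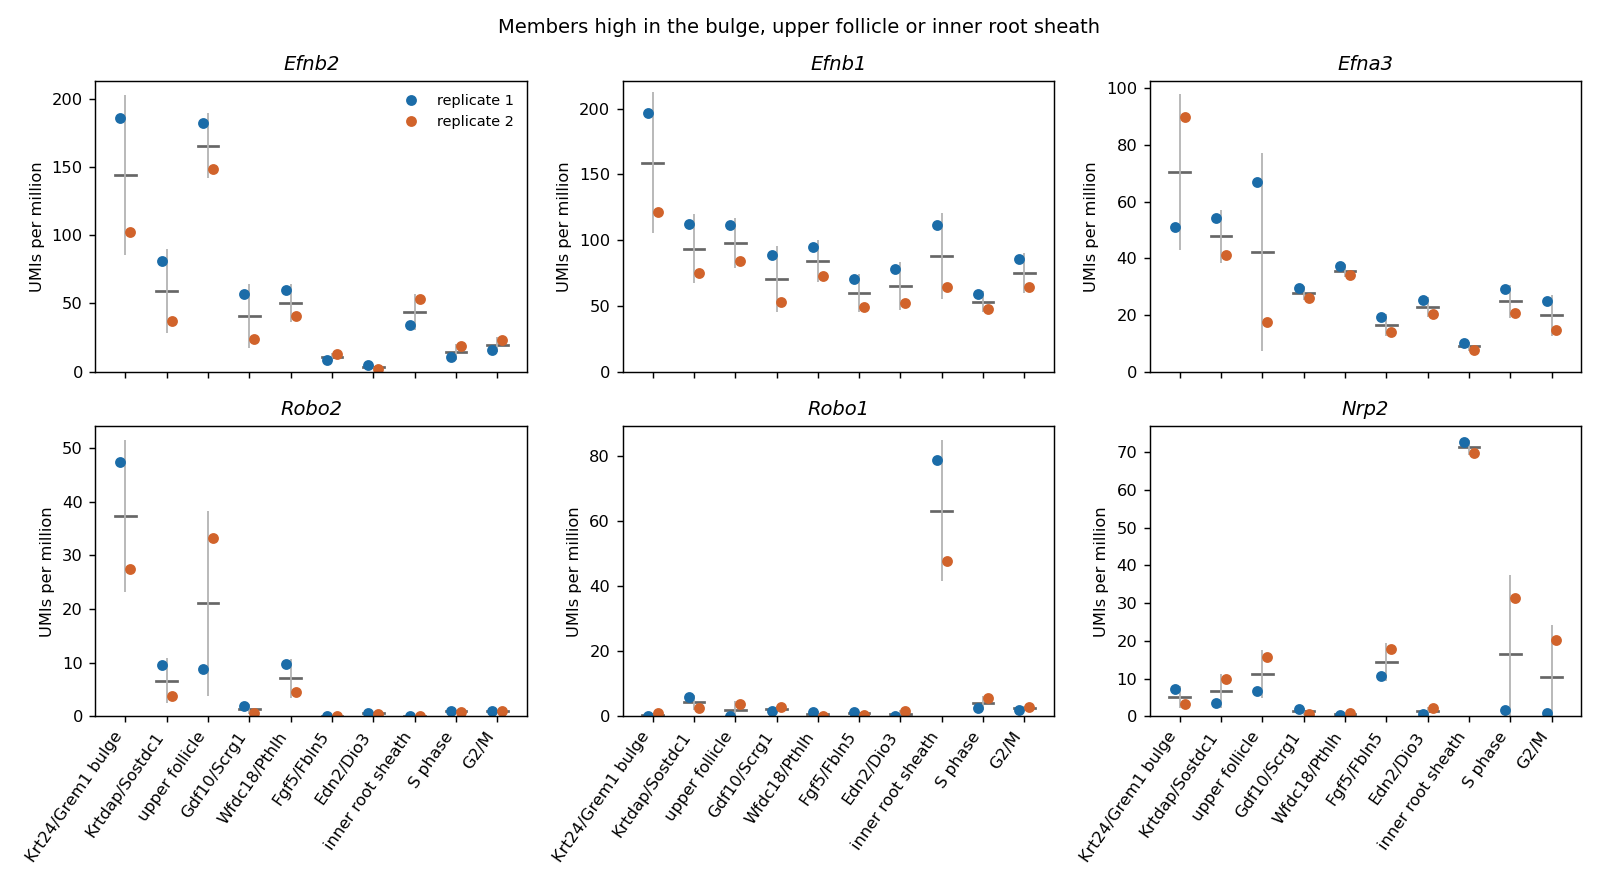
Points are CPM of Efnb2, Efnb1, Efna3, Robo2, Robo1 and Nrp2 in the 10 states (blue, replicate 1; orange, replicate 2); the grey dash is the mean and the grey line ± SD, drawn no lower than 0. Efnb2 is high in the bulge and upper follicle, Robo2 is 47.4 and 27.4 in the bulge, and Robo1 (78.6 and 47.9) and Nrp2 (72.7 and 69.8) peak in the inner root sheath.

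Among the secreted semaphorins, Sema3e (chr5:14025276-14256689), the ligand of plexin D1, was 153 and 211 CPM in Fgf5/Fbln5 cells. Bulge cells held 91.2 and 91.8 and Edn2/Dio3 cells 84.6 and 98.9, and Wfdc18/Pthlh cells were low at 14.3 and 14.8. The log2 fold change was 2.03 ± 0.17 in Fgf5/Fbln5 cells (edgeR adjusted p = 2.65e-08) and -1.88 ± 0.25 in Wfdc18/Pthlh cells (adjusted p = 1.72e-05). Its receptor gene Plxnd1 did not pass the filter: it had 3 and 2 UMIs in Fgf5/Fbln5 cells and stayed at or below 3.65 CPM in every keratinocyte state. Plxnd1 was 213 and 49.1 in the immune cells, from 20 and 9 UMIs, and 23.6 and 8.04 in fibroblasts.

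Sema3c, a ligand that uses neuropilins and plexins, was lowest in Wfdc18/Pthlh cells in both libraries, at 6.69 and 4.92 CPM (log2 fold change -2.50 ± 0.29, edgeR adjusted p = 4.03e-06). It was higher in the bulge, at 62.0 and 77.7 (1.32 ± 0.25, adjusted p = 0.000964), and in Gdf10/Scrg1 cells, at 44.6 and 62.5 (0.95). Sema3f, which acts chiefly through neuropilin 2, was higher in Gdf10/Scrg1 cells (48.9 and 49.1, 1.65 ± 0.25, adjusted p = 0.000125), Edn2/Dio3 cells (44.5 and 29.1, 1.004) and Fgf5/Fbln5 cells (48.3 and 26.0, 0.98), and lower in the inner root sheath (4.18 and 2.59, -2.72). Sema3d was called higher in the upper follicle (2.23 and 15.7, 4.85 ± 1.02, adjusted p = 0.00526) and in Gdf10/Scrg1 cells, where it had no UMI in replicate 1 and 6.32 CPM in replicate 2. The upper follicle values are 1 and 8 UMIs, and 7 states of replicate 1 held none, so this fold depends on the small count added by the fit. In Gdf10/Scrg1 cells the direction differed between the libraries fitted alone (-0.53 and 2.15), so that call rests on replicate 2.

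The membrane-bound semaphorins divided the states differently. Sema6a was higher in Wfdc18/Pthlh cells, at 42.4 and 29.1 CPM (log2 fold change 3.27 ± 0.27, edgeR adjusted p = 8.77e-08), and in the upper follicle, at 66.9 and 11.8 (3.38 ± 0.46, adjusted p = 5.26e-05). Fgf5/Fbln5 cells held 1 and 0 Sema6a UMIs. Sema4b was highest in the inner root sheath, at 63.5 and 64.7 (1.61 ± 0.19, adjusted p = 4.61e-06), and lowest in Krtdap/Sostdc1 cells, at 9.66 and 12.6 (-1.20). Sema5a was lower in Wfdc18/Pthlh cells (12.3 and 11.2, -1.29) and the inner root sheath (8.36 and 5.17, -2.13), and higher in Gdf10/Scrg1 cells (41.0 and 61.1, 1.05), Krtdap/Sostdc1 cells (53.1 and 40.8, 0.70) and the bulge (32.8 and 46.1, 0.69). Sema4g was higher in Wfdc18/Pthlh cells (18.6 and 21.9, 1.23).

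Sema7a, a lipid-anchored semaphorin whose receptors are plexin C1 and integrins, was scarce. Fgf5/Fbln5 cells held 25 and 35 Sema7a UMIs (6.43 and 9.68 CPM) and Edn2/Dio3 cells 7 and 7, while 5 states held none in either library. It was called higher in these states (5.17 and 3.66) and in the inner root sheath (3.78, adjusted p = 0.0111), where it had 5 and 1 UMIs. Its log2 fold change in Fgf5/Fbln5 cells, 5.17 ± 0.57 (edgeR adjusted p = 1.02e-05), depends on the small count added by the fit. Only 3.27% (1.65 to 5.78) and 4.33% (2.39 to 7.17) of thinned Fgf5/Fbln5 cells held a UMI. Plxnc1 had no UMI in Fgf5/Fbln5 or Edn2/Dio3 cells. Sema4a was called higher in the bulge (0.86, adjusted p = 0.0261), but it stood at 14.6 in replicate 1 and 39.8 in replicate 2, and the libraries alone gave -0.45 and 1.14.

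Among the plexins, the semaphorin receptors, Plxna2 was called in 6 states. It was higher in the inner root sheath, at 87.8 and 63.4 CPM (log2 fold change 1.42 ± 0.19, edgeR adjusted p = 2.01e-05), and in the bulge, at 58.4 and 63.5 (1.28 ± 0.20, adjusted p = 0.000149). Plxna2 was lower in Edn2/Dio3 cells (16.8 and 15.4, -1.17), S phase (-0.74), G2/M (-0.65) and Fgf5/Fbln5 cells (-0.57). Plxna1 was higher in Wfdc18/Pthlh cells (31.7 and 26.4, 1.05 ± 0.19, adjusted p = 0.00046). Plxnb2, present in every state at 29.6 to 60.2 in replicate 1 and 20.7 to 42.0 in replicate 2, gave no difference past the threshold (joint adjusted p = 0.0887), and Plxnb1 passed the joint test (0.0248) without a call in any single state.

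Nrp2, a co-receptor of secreted semaphorins, was 72.7 and 69.8 CPM in the inner root sheath (log2 fold change 4.34 ± 0.49, edgeR adjusted p = 3.85e-06). In Wfdc18/Pthlh cells it had 2 and 2 UMIs (-3.64 ± 1.04, adjusted p = 0.0168). S phase and G2/M cells split by library: Nrp2 was 1.81 and 31.3 in S phase and 0.80 and 20.2 in G2/M of replicates 1 and 2. In those cells Hhip, one of the 4 dermal papilla markers, stood at 0.362 and 11.7 in S phase and 0 and 13.5 in G2/M; the list summed to 1.45 and 18.8, and 0.60 and 19.8, with Rspo3 at 0 in both states of replicate 2. Of the 5 fibroblast markers, Dcn stood at 5.43 and 46.3 in S phase and 5.40 and 19.3 in G2/M. Col3a1 had the opposite order, at 2.54 and 0.272 in S phase and 14.2 and 1.39 in G2/M. Col1a1 and Lum were also lower in replicate 2 in both states, and Col1a2 in G2/M only. The 5 summed to 11.6 and 50.9 in S phase and 26.2 and 23.9 in G2/M. Fibroblasts held Nrp2 at 47.1 and 61.1. The part of such cells in the Nrp2 values was not tested. Nrp1 was near 0 in most states and had 11 and 7 UMIs in Gdf10/Scrg1 cells (4.34 and 4.91 CPM, 3.84 ± 0.70, adjusted p = 0.000935), far below fibroblasts at 60.4 and 134. Since 5 states of replicate 1 and 3 of replicate 2 held no Nrp1 UMI, this fold depends on the small count added by the fit. The libraries alone gave 2.48 and 2.04.

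Counted by state, the inner root sheath had the most calls among members and G2/M the fewest. In the bulge 11 of 36 tested members were higher, against 10.4% of all genes, and 3 lower, against 8.79%. In Fgf5/Fbln5 cells 8 were higher (13.9% of all genes) and 8 lower (10.6%), and in Edn2/Dio3 cells 8 higher (10.1%) and 4 lower (6.44%). Wfdc18/Pthlh cells had 10 higher (13%) and 5 lower (8.01%), with 21% of all genes called in either direction, and Gdf10/Scrg1 cells 8 higher (14.2%) and 0 lower (6.85%), also with 21% in either direction. The inner root sheath had 6 higher (15.8%) and 14 lower (12.7%), with a median log2 fold change over the tested members of -0.72 against -0.03 over all genes. Krtdap/Sostdc1 cells had 4 higher (3.85%) and 2 lower (2.23%; 6.09% in either direction), and the upper follicle 4 higher (7.49%) and 2 lower (2.95%). S phase had 1 higher (11.3%) and 5 lower (3.51%), and G2/M 0 higher (9.98%) and 3 lower (4.86%). Since the tested members are among the better expressed genes of their families, these shares are descriptions and no test of the families was made.

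Over all 10 contrasts Epha2 was called in 7 states and Efnb2, Plxna2 and Slit3 in 6 each. Of the 106 calls, 3 had a mean level on the other side of the mean of the remaining states, because the contrast averages log levels: Efnb2 and Robo2 in Wfdc18/Pthlh cells and Slit3 in S phase. Slit3 in S phase was 69.2 and 48.5 CPM, a mean of 58.8 against 58.9 in the others, with a log2 fold change of 0.60. It is not read as a higher level.

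Bulge cells were also set directly against Wfdc18/Pthlh cells. The pair was picked as the most unlike common states named in earlier work on these data, so differences between them were likely beforehand. This contrast gave 9 members higher in the bulge (9.11% of all genes) and 7 lower (10.7%). The largest differences toward the bulge were Sema3c (62.0 and 77.7 against 6.69 and 4.92 CPM, log2 fold change 3.44 ± 0.37, edgeR adjusted p = 2.74e-06), Sema3e (2.63 ± 0.32, 1.15e-05) and Robo2 (2.27 ± 0.49, 0.00288). Toward Wfdc18/Pthlh cells they were Sema6a (-3.36 ± 0.60, adjusted p = 0.000517) and Slit3 (10.9 and 6.85 against 54.6 and 63.9, -3.00 ± 0.33, 3.07e-06). The ligands Efnb1, Efnb2, Efna3 and Efna4 were higher in the bulge, and Efna5 lower (-1.47 ± 0.28, adjusted p = 0.000795). Without the library term 5 members were higher, in place of 9.

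**Figure D4:**
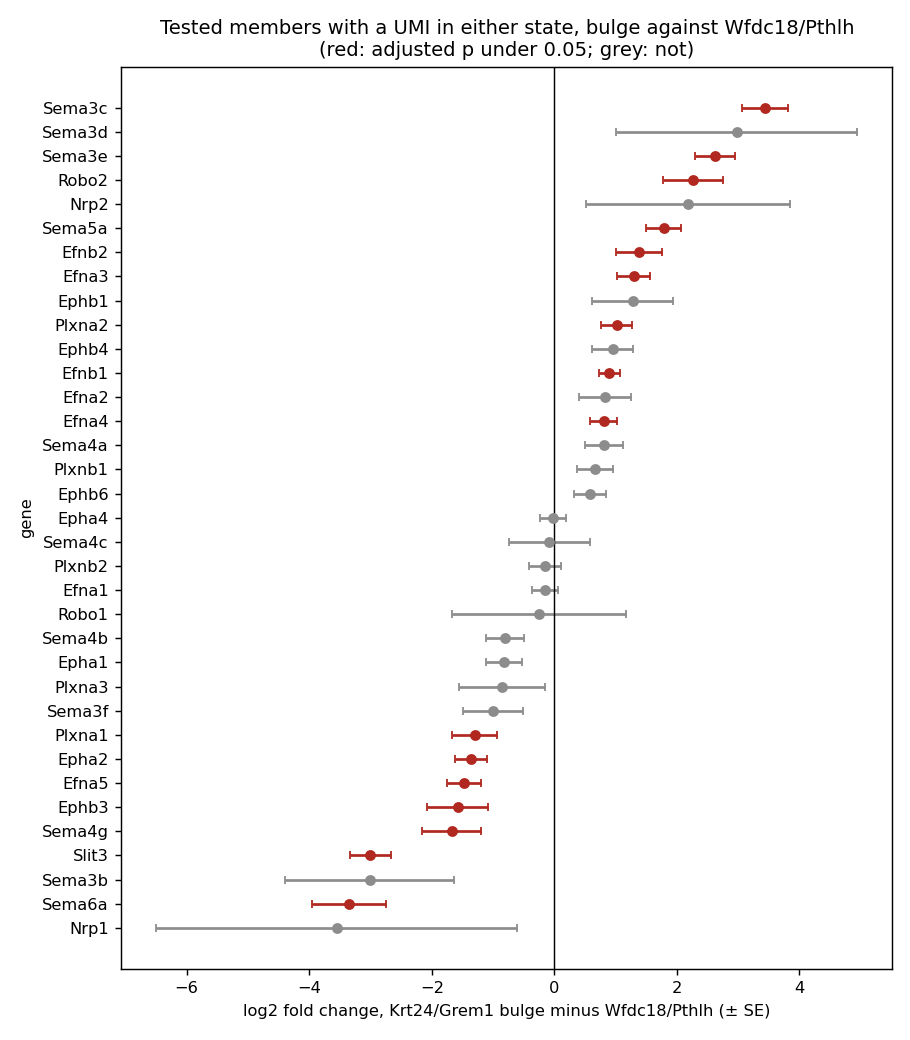
Points are log2 fold changes (x axis, bulge minus Wfdc18/Pthlh) of the tested members (y axis) other than Sema7a, which had no UMI in either state, with ± SE as bars; red marks an adjusted p under 0.05. Sema3c lies farthest to the right at 3.44 and Sema6a farthest to the left at -3.36 among the red points.

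G2/M cells were set against the mean of the 8 states not gated on cell cycle markers, called non-cycling here, to ask whether the genes moved with the cell cycle. The inner root sheath, 1 of the 8, carried cell cycle markers itself: the G2/M list summed to 1429 and 1150 CPM there, against 717 and 754 in S phase and 3706 and 3992 in G2/M cells. Without the inner root sheath and Krtdap/Sostdc1 gates 6 members were lower and 0 higher. Of the tested members, 1 was higher (11.3% of all genes) and 6 lower (5.8%): Efnb2, Sema4g, Plxna2, Efna3, Epha2 and Efna1 were lower, by log2 fold changes of -1.07 to -0.48. Sema4g was 7.001 and 3.95 CPM in G2/M cells (-1.01 ± 0.30, edgeR adjusted p = 0.0232) and Efna3 25.004 and 14.6 (-0.72 ± 0.21, adjusted p = 0.0207). The higher member was Slit3 (0.51, adjusted p = 0.0244), whose mean level, 56.4, was below the 59.2 of the non-cycling states. These counts were the least stable of the results: with at most 5% mitochondrial UMIs Efnb2 and Slit3 turned direction (0.41 and -0.42), and without the library term no member was lower.

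Other genes of the same pathways were counted from lists of partner genes. In the joint test 7 of 10 tested genes of the netrin and RGM list differed between states, 17 of 26 for Eph and ephrin signal transduction, 25 of 28 for semaphorin and plexin signal transduction, 16 of 19 for Slit and Robo signal transduction and 4 of 4 for VEGF ligands and receptors, against 60.8% of all genes. Chn2, a Rac GTPase-activating protein of the chimaerin family, was 2.23 and 1.96 CPM in the upper follicle (log2 fold change -3.81 ± 0.88, edgeR adjusted p = 0.00772) and 82.9 and 91.2 in Edn2/Dio3 cells (1.98 ± 0.24, 1.25e-05). Grip1, a scaffold that binds B-class ephrins, was 14.6 and 16.9 in the bulge (2.45 ± 0.38, adjusted p = 0.000116) and 0.257 and 0.553 in Fgf5/Fbln5 cells (-3.34 ± 0.59, 0.000313). The upper follicle held only 448574 and 510484 UMIs of all genes, so the Chn2 value there rests on very few UMIs. The low Grip1 value in Fgf5/Fbln5 cells also rests on very few.

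Srgap1, a protein that binds Robo receptors, was 25.1 and 31.0 CPM in the inner root sheath (log2 fold change 2.15 ± 0.35, edgeR adjusted p = 0.000126), the state with the most Robo1. Prrg4 was 69.9 and 72.4 in Wfdc18/Pthlh cells (2.18 ± 0.18, 6.72e-08). Dpysl3, a mediator of semaphorin signals in axons, was 40.1 and 21.9 in the bulge (3.80 ± 0.62, 0.000208), and Mst1r, a receptor tyrosine kinase, was 13.4 and 5.88 in the upper follicle (4.63 ± 0.89, 0.00199). Ntn1, a secreted netrin, was 17.6 and 10.3 in the inner root sheath (4.83 ± 0.56, 5.88e-06). Dscaml1 was called in the bulge (4.15, 0.00421) but had no UMI in replicate 1. Pgf, a VEGF family ligand, was 21.3 and 14.9 in Fgf5/Fbln5 cells (4.75 ± 0.38, 5.57e-08), and Vegfd 8.74 and 18.5 (2.83 ± 0.36, 7.53e-06). Neither library held a UMI of Mst1r in the inner root sheath, of Ntn1 in the upper follicle, or of Pgf in either of these states. The folds of Mst1r, Ntn1 and Pgf therefore depend on the small count added by the fit. The Mst1r value in the upper follicle also rests on few UMIs. Flrt2, a ligand of the netrin receptors of the Unc5 family, was 338 and 425 in Fgf5/Fbln5 cells and at most 91.2 elsewhere (3.21 ± 0.17, 1.26e-10). Kalrn, an exchange factor for small GTPases in the Eph and ephrin list, was 166 and 172 in Wfdc18/Pthlh cells and 7.29 and 4.57 in the bulge (-4.85 ± 0.50 in the direct contrast, 1.75e-06). Flrt2 and Kalrn were singled out after their values were seen.

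Over all kept cells the libraries differed in some members more than in others. Epha2 was 79.3 CPM in replicate 1 and 29.2 in replicate 2, a ratio of 2.71, and was higher in replicate 1 in all 10 states. Epha4 (169 and 110) and Efnb1 (80.3 and 60.4) were also higher in replicate 1 in all 10 states. Nrp2 had the opposite order, at 6.11 and 15.5, and was higher in replicate 2 in 7 states. Of the 26 members with at least 10 CPM, 11.5% differed by more than 2-fold between the libraries (2 higher in replicate 1 and 1 in replicate 2), against 2.68% of 7679 genes. With 1 group and 2 libraries no test between them was made.

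**Figure D5:**
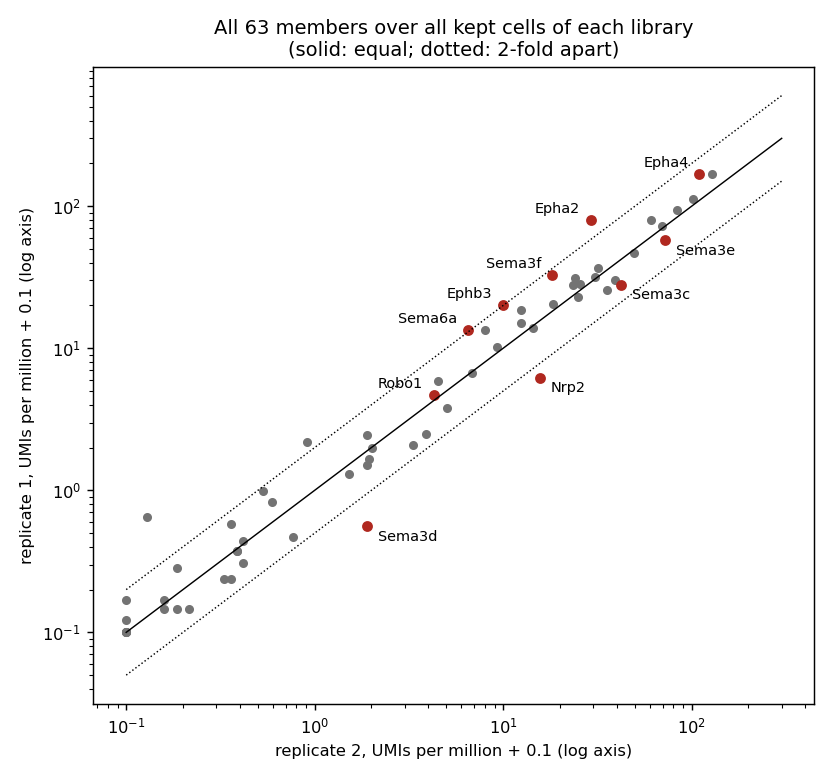
Each point is 1 of the 63 members over all kept cells, with CPM + 0.1 of replicate 2 on the x axis and of replicate 1 on the y axis (both log axes); red points are named. The solid line is equality and the dotted lines are 2-fold apart. Epha2 lies above the upper dotted line (79.3 against 29.2) and Nrp2 below the lower one (6.11 against 15.5).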

How the data were processed

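The deposited matrices hold raw, unscaled UMI counts from the 10x Chromium 3′ kit v3, per the labels. Per the submitters' processing notes, Cell Ranger 3.1.0, Seurat 3.1 and mm10 were used. The gene annotation was not given in the sources used here. Both libraries held the same 11 barcodes, 3 of them among kept cells. RNA free in droplets was not removed, and doublets were removed only in an alternative (295 and 195 kept cells).

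Cells were scored for each marker list by the mean z score of log(1 + UMIs per 10000), and assigned where the score was at least 0.75 and 0.25 above the next, with at least 2 markers detected (3 for other cell types). This left 2427 cells unassigned. The members, the lists and the pair of states set directly against each other were chosen with earlier results of these data known. The scoring rule was chosen after the files were seen. Raw counts were summed per state and library (at least 20 cells) and tested with edgeR 4.0.16 (TMM, filterByExpr, quasi-likelihood, library term) over 11188 genes. The 79 gate marker genes were left out of the tests. Each SE was derived as the absolute log2 fold change over the square root of its F statistic, since the fit reports none. It is unreliable where states hold few or no UMIs. The library term pairs the sums because sums with the same number come from the same library. Alternatives were DESeq2 1.42.0, other size factors, no filter, no library term, stricter or looser gates, thinning, doublet removal, a 5% mitochondrial limit, each library alone and, added after seeing the data, 2 gates fewer. In simulated data on 10734 genes for the Fgf5/Fbln5 contrast, 98 of 100 genes changed 2-fold were recovered, 100 of 100 changed 4-fold, and 11 of 209 calls were false. The changed genes were drawn from those with higher mean counts, and the simulation held no library difference and no other difference between states. These rates therefore do not cover members with few UMIs, states with few cells or members that differ between libraries.

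Members described in full are the 25 with the highest mean level in their highest state and, per state, up to 5 called members with the largest absolute log2 fold change and the same direction in both libraries; for each pathway list the rule names 2 called genes with the largest absolute log2 fold change over the contrasts of a state with the other states. Loci come from GENCODE M21 (GRCm38), which held all 63 members; promoters were found for 53. Detection shares have exact Clopper-Pearson 95% intervals.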

Additional observations from a re-analysis of the deposited data

How the results depend on the processing

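Of 645 values of members named for a contrast, recomputed under an alternative with a test, 592 kept their direction and side of the threshold, 50 kept their direction and lost the call, and 3 turned direction. All 3 came with at most 5% mitochondrial UMIs: Slit3 in S phase (-0.22), and Slit3 (-0.42) and Efnb2 (0.41) in G2/M against the non-cycling states. That limit left only 6 states, without the bulge, so the bulge comparison was not run there; it gave 21 members called in the joint test of 30 tested, 30 higher and 18 lower calls over the states, and 2 higher and 3 lower members in G2/M. The cause was not tested beyond the fewer cells and states. Without the replicate block (the library term that pairs sums of the same library) 22 of 70 named values lost their call, lower calls over the states were 25 in place of 46, members higher in the bulge against Wfdc18/Pthlh cells were 5 in place of 9, and G2/M had 0 higher and 0 lower members. Thinning to 5000 UMIs gave 30 lower calls over the states and 2 lower members in G2/M. The single member higher in G2/M became 0 with DESeq2, looser gates, doublets removed or 2 gates fewer, and 2 with no filter on low counts; for these the cause was not tested. Each library alone leaves no test; the named members of each state were chosen for the same direction in both libraries, so their agreement shows no stability. Sema4a in the bulge and Sema3d in Gdf10/Scrg1 cells differed in direction between the libraries. Median shifts between size factor methods stayed under 0.1 on the log2 scale. Depth limits states with few cells: 35 bulge cells in replicate 1 and 31 and 32 upper follicle cells.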

Other observations

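The sort also held 54 and 36 fibroblast cells in replicates 1 and 2. In them Sema3c stood at 177 and 125 CPM (UMIs per 1000000), Slit3 at 183 and 113, Slit2 at 105 and 77.2, Nrp1 at 60.4 and 134 and Nrp2 at 47.1 and 61.1. Several members that had few or no UMIs in the keratinocyte states were present there: Sema3a (16.2 and 11.3), Sema3g (39.8 and 12.9), Epha3 (30.9 and 9.65), Ephb2 (19.1 and 22.5) and Plxna4 (5.89 and 11.3). Efna3 and Ephb1, both detected in every keratinocyte state, had 1 and 1 UMIs and none. The 9 and 14 immune cells were led by Plxnd1 (213 and 49.1), Nrp2 (171 and 49.1) and Sema4a (128 and 71.0). These cells were too few for a test, and their values are descriptions.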
